A study of Mus musculus with 94 samples.

Results

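G9 and C4 are 2 mouse embryonic stem (ES) cell clones in which RAD21, the kleisin subunit of the cohesin ring, carries an FKBP degron, a tag through which the small molecule dTAG-13 directs the protein to degradation. Both derive from an ES cell (Tsix-stop) background that is a CAST/Ei x 129/Sv/Jae hybrid, and both were differentiated as embryoid bodies, the aggregates in which ES cells form cells of the 3 germ layers after withdrawal of LIF. The libraries compared are the 8 that hold both clones, of 94 samples in the series. The 4 PRO-seq libraries, which map transcriptionally engaged RNA polymerase, were taken at day 7 from clone G9 with dTAG-13, G9 with DMSO, C4 with dTAG-13 and C4 with DMSO. The 4 poly(A) RNA libraries were taken at day 10 from the same clones and treatments. Treatment lasted 8 h, with 500 nM dTAG-13 or with DMSO, the solvent. The embryoid bodies were kept for 3 days in suspension and then plated on gelatin. The stem cells had been grown on irradiated mouse embryonic fibroblasts, which can contribute fibroblast RNA.

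The difference described throughout is G9 minus C4, with treatment as a term of the model, so a positive log2 fold change means higher in G9. Each clone has 1 library per treatment in each assay, and each line is 1 clone. A property of the clone and a property of its culture therefore cannot be told apart. The p-values rest on the spread between these libraries after the treatment term and on nothing wider. A gene has 1 residual degree of freedom, the gap between its clone differences in the 2 treatments. The spread used was therefore mostly shared across genes in PRO-seq (prior degrees of freedom 29.48) and wholly shared in RNA (infinite). In RNA the p-values and SEs do not measure the spread of the single gene. Day and assay changed together, so a contrast between the PRO-seq and RNA results cannot be assigned to either.

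In the early mouse embryo, cells leave the pluripotent epiblast through the primitive streak, where the T-box factors T and Eomes and the homeobox factor Mixl1 mark cells bound for mesoderm and definitive endoderm. Wnt3 and Nodal are signals that establish the streak, and Gata4, Gata6, Sox17 and Foxa2 are transcription factors of the endoderm and, for the Gata factors, of the heart. Embryoid bodies pass through these steps in a similar order. In bulk samples such as these, fewer cells of a type and less RNA per cell cannot be told apart.

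Total counts were 14947006.5 and 14269544.5 in the G9 PRO-seq libraries and 22781511.5 and 34335988.5 in those of C4, with dTAG-13 before DMSO, and 13802076 and 33808921 in the G9 RNA libraries against 26474853 and 23576374 in those of C4. A count of 3 corresponds to between 0.0858 and 0.224 CPM, the count scaled to a common library size with TMM factors. Counts differed between the libraries of a clone beyond sampling noise, with chi-square values per gene of 14.7 in G9 and 13.4 in C4 for PRO-seq and 12.6 and 11.3 for RNA, so no library was a copy of another. The principal axis of variation separated the clones in PRO-seq, where it held 64.3% of the variance. In RNA it held 60.8%, with G9 at -36.61 and -6.23 and C4 at 13.8 and 29.04, dTAG-13 before DMSO. There the G9 libraries lay farther from each other than the G9 DMSO library lay from the C4 dTAG-13 library. The labels of the clones could not be checked by a gene. The degron acts on the protein, so Rad21 transcripts do not test it: nascent Rad21 was 182 and 168 CPM in G9 and 191 and 168 CPM in C4, with dTAG-13 and DMSO in that order. In day 10 RNA Rad21 was 216 and 201 CPM in G9 and 284 and 251 CPM in C4, a log2 fold change of -0.35 ± 0.06 (SE, edgeR adjusted p = 4.99e-07).

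Nascent transcription at day 7 was called different between the clones at 5736 of 16496 genes tested (34.8%, edgeR quasi-likelihood test, Benjamini-Hochberg adjusted p under 0.05). Of these, 2947 were higher in G9 (17.9%) and 2789 were lower (16.9%), and 609 (3.69%) and 637 (3.86%) passed with at least a 2-fold difference. Scaling by library totals in place of TMM moved the share of higher calls to 41.0%, against 51.4%, and moved the median of all genes by under 0.1. In day 10 RNA 6248 of 14470 genes were called (43.2%), 3071 higher (21.2%) and 3177 lower (22%), of which 85 (0.587%) and 298 (2.06%) differed at least 2-fold. Background shares this large mean that a call alone carries little, and the sizes and per-library values below carry the description. The calls rest on the treatment term: without it 1366 PRO-seq genes and 357 RNA genes were called, and leaving out 1 library, which also drops that term, gave 212 to 2357 PRO-seq calls and 0 to 265 RNA calls. The RNA calls were 0 without the dTAG-13 or the DMSO library of C4, where 2398 and 2080 genes had an unadjusted p under 0.05, 5 without the dTAG-13 library of G9 and 265 without its DMSO library. DESeq2 with the same design called 2835 PRO-seq genes and 1690 RNA genes. The clone difference in the dTAG-13 libraries and that in the DMSO libraries, which share no library, correlated across genes with r = 0.717 in PRO-seq and 0.68 in RNA, given as a description since genes are not independent.

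Genes of the primitive streak at day 7 had the largest median difference among 22 cell type lists in either assay. Of 18 listed streak and early mesoderm genes 17 could be tested, 13 were higher in G9 and 0 were lower, and the 4 others did not pass. None was lower at an unadjusted p either, and DESeq2 called 12 higher and 0 lower. Their median log2 fold change was 1.94, against -0.0032 over all genes tested. Nascent T, the founding T-box factor of mesoderm, was 42.5 and 145 CPM in G9 with dTAG-13 and DMSO, against 5.26 and 19.2 CPM in C4. Both G9 libraries lay above both C4 libraries, and in each clone the dTAG-13 library was the lower (log2 fold change 2.95 ± 0.11, adjusted p = 4.34e-19). Mixl1, a homeobox factor of the streak, was 15.2 and 28.0 CPM in G9 and 1.98 and 1.74 CPM in C4 (3.53 ± 0.22, adjusted p = 5.78e-14). Neither clone's libraries came near the other's. Eomes, the T-box factor needed for endoderm and cardiac mesoderm, was 47.4 and 84.3 CPM in G9 and 12.2 and 22.2 CPM in C4 (1.94 ± 0.11). Mesp1, a factor of the earliest cardiac progenitors, was near the floor in C4, at 0.302 and 0.515 CPM, and was 1.65 and 2.98 CPM in G9 (2.49 ± 0.48, adjusted p = 0.000109).

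Genes of the anterior streak and node followed the same order. Lhx1, a LIM homeobox factor, was 11.9 and 47.7 CPM in G9 and 2.97 and 3.63 CPM in C4 (log2 fold change 3.03 ± 0.23). Gsc, the organizer homeobox gene goosecoid, was 6.80 and 12.9 CPM in G9 and 1.55 and 2.17 CPM in C4 (2.38 ± 0.25). Foxa2, a forkhead factor of node and endoderm, was 2.82 and 10.2 CPM in G9 and 0.776 and 1.49 CPM in C4 (2.44 ± 0.32). All G9 values of these genes exceeded all C4 values. Posterior streak genes stood higher as well: Evx1 was 24.7 and 40.2 CPM in G9 and 6.29 and 7.98 CPM in C4 (2.17 ± 0.15), and Cdx2, a caudal factor that also marks trophoblast, was 7.28 and 8.02 CPM in G9 and 1.68 and 0.743 CPM in C4 (2.74 ± 0.31).

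Of the signals that act on the streak, Wnt3, Fgf8 and Nodal, which the streak list holds, were higher in nascent G9 transcription. Wnt3 was 323 and 294 CPM in G9 and 104 and 92.1 CPM in C4 (log2 fold change 1.66 ± 0.07), and Fgf8 was 71.4 and 137 CPM in G9 and 18.1 and 40.6 CPM in C4 (1.86 ± 0.09). Nodal showed a smaller difference, at 203 and 207 CPM in G9 and 126 and 122 CPM in C4 (0.73 ± 0.07). The wider signal lists had both signs, with 6 higher and 4 lower of 15 Nodal and TGF-beta genes and 9 higher and 3 lower of 21 FGF genes. The Nodal antagonists Lefty1 and Lefty2 were among the lower ones (-0.65 ± 0.09 and -0.70 ± 0.12), as were Gdf3, a ligand related to Nodal (-1.25 ± 0.10), and Fgf4, described below. Of 29 Wnt ligands, antagonists and targets tested, 14 were higher in G9 and 4 lower, with a median of 0.59 (10 and 2 by DESeq2). Sp5, a zinc finger gene induced by Wnt signalling, was 25.9 and 56.9 CPM in G9 and 6.12 and 9.66 CPM in C4 (2.35 ± 0.14). Among the 4 lower was Notum, a secreted enzyme that inactivates Wnt, at 2.47 and 5.82 CPM in G9 and 10.3 and 12.5 CPM in C4 (-1.501 ± 0.22). Of 19 BMP ligands, antagonists and targets 10 were higher and 1 lower, with a median of 0.63 (8 and 0 by DESeq2). They included the BMP target Id1 (40.1 and 42.7 CPM in G9, 21.6 and 17.4 CPM in C4) and the antagonist Fst, at 12.7 and 68.3 CPM in G9 and 2.71 and 9.09 CPM in C4 (2.68 ± 0.16). Cyp26a1, which breaks down retinoic acid and is transcribed in the gastrulating embryo, was 6.59 and 30.8 CPM in G9 and 0.474 and 2.72 CPM in C4 (3.57 ± 0.22).

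The promoter of Sp5 is shown because it was the gene among the Wnt targets with the largest difference. It was also chosen because its 250 bases before the start hold a match to the TCF/LEF letters CTTTGAT, the element through which Wnt signalling acts. Matches were not counted over the Wnt list, so Sp5 may not be typical of it. The window is from RefSeq (GRCm38.p6, chr2:70474673-70474922, plus strand, match in capitals).
Sp5 promoter: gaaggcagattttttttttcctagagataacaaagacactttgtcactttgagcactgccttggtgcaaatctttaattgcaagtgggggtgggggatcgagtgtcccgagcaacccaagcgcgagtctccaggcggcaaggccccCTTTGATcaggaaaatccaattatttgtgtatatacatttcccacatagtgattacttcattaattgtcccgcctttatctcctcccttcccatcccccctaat
The match begins 104 bases before the start. Both strands were searched, and 3.21% of 32851 promoter windows of this length held these letters. A promoter was listed for 15 streak genes, of which Mesp1 and Msgn1 held them. A gene counted if any of its windows did, while the 3.21% is a share of windows. A match is a description of letters and not a site of binding.

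**Figure D1:**
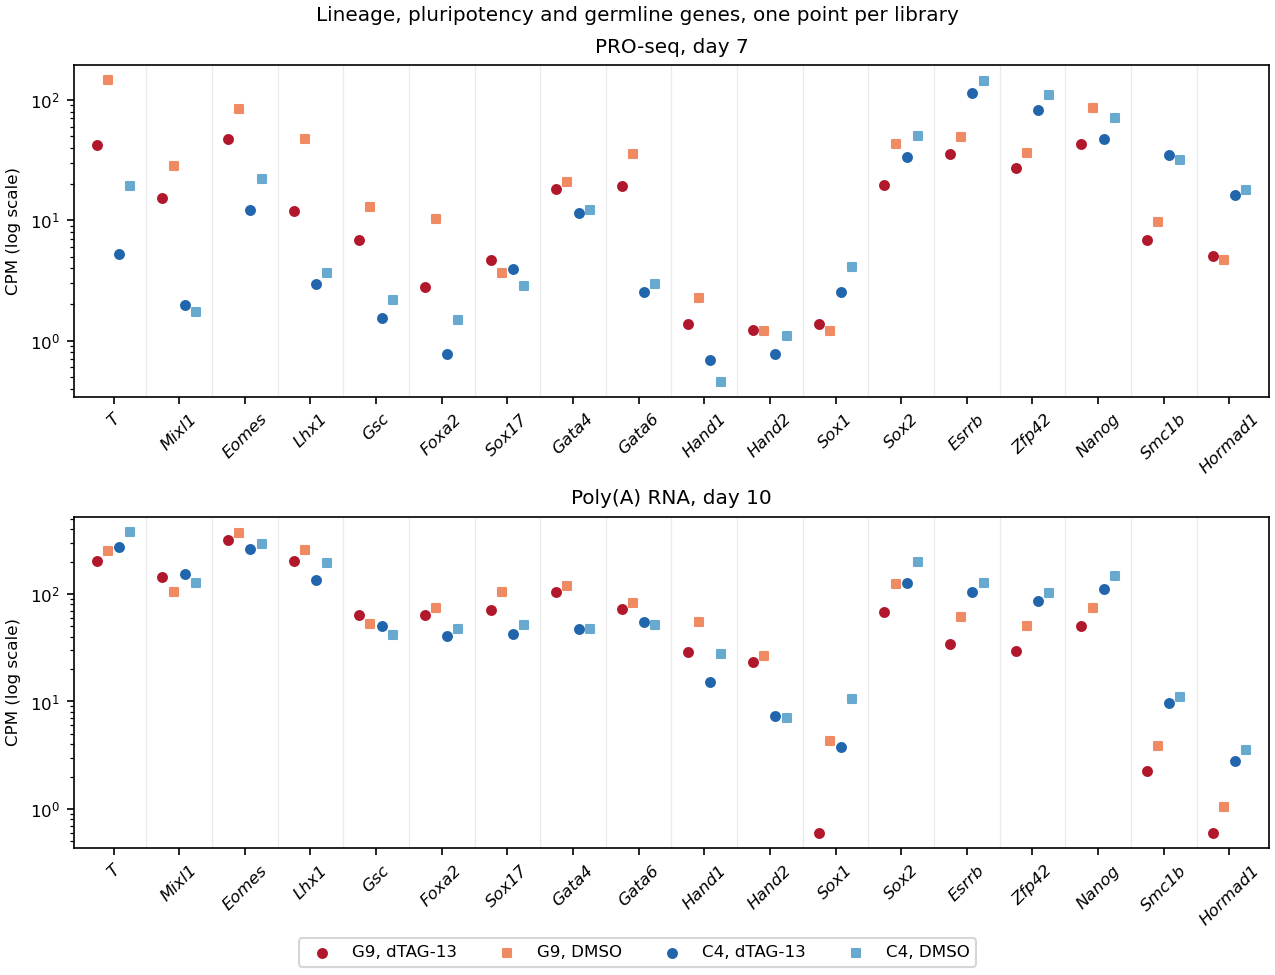
Normalised CPM (log scale) of 18 lineage, pluripotency and germline genes in each library, with PRO-seq at day 7 above and poly(A) RNA at day 10 below; red and orange are G9 with dTAG-13 and DMSO, dark and light blue are C4 with dTAG-13 and DMSO. At day 7 the G9 points of T, Mixl1, Eomes, Lhx1, Gsc, Foxa2 and Gata6 lie above the C4 points, while those of Esrrb, Zfp42, Smc1b and Hormad1 lie below them in both assays.

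At day 10 the streak genes no longer stood together. In RNA 6 of 17 were higher in G9, 6 were lower and 5 did not pass, with a median of -0.10, against 0.0038 over all genes. DESeq2 called 3 higher and 4 lower. T was 202 and 253 CPM in G9 and 275 and 381 CPM in C4 (log2 fold change -0.52 ± 0.07, adjusted p = 5.84e-13), lower in G9 within each treatment. Cdx2 was 12.3 and 16.4 CPM in G9 and 22.9 and 28.2 CPM in C4 (-0.83 ± 0.10). Msgn1, a factor of presomitic mesoderm, was 0.897 and 1.10 CPM in G9 and 3.07 and 2.90 CPM in C4 (-1.52 ± 0.28). Mesp1 remained higher in G9, at 12.6 and 12.6 CPM against 5.34 and 6.00 CPM in C4 (1.14 ± 0.14), and so did Lhx1, at 203 and 260 CPM against 136 and 196 CPM in C4 (0.49 ± 0.06). The other genes lower in G9 were Cdx4 (-1.53 ± 0.42), Evx1 (-0.36 ± 0.06) and Mixl1 (-0.18 ± 0.06). Evx1 lies on chromosome 6, whose genes had a median of -0.262 in RNA, as described below. Without the DMSO library of G9 the value of Mixl1 was 0.05.

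Genes of definitive endoderm and gut were mostly higher in G9 at day 10. Of 23 listed genes of definitive endoderm and gut 19 could be tested, and 14 were higher in G9 and 2 lower, with a median of 0.55 (9 and 1 by DESeq2). At day 7 the same list gave 7 higher and 4 lower, with a median of 0.30 (3 and 2 by DESeq2). Sox17, the SOX factor of definitive and extraembryonic endoderm, was 70.5 and 105 CPM in G9 and 42.4 and 52.0 CPM in C4 at day 10 (log2 fold change 0.88 ± 0.06, adjusted p = 4.42e-46). Its nascent transcription at day 7 did not pass, at 4.67 and 3.62 CPM in G9 and 3.96 and 2.86 CPM in C4. Cer1, a secreted inhibitor of Nodal, BMP and Wnt made by anterior endoderm, was 25.0 and 32.97 CPM in G9 and 13.3 and 15.9 CPM in C4 (0.99 ± 0.09). Foxa2 was 63.6 and 74.8 CPM in G9 and 41.0 and 47.1 CPM in C4 (0.65 ± 0.06). In each of these 3 genes both G9 libraries were above both C4 libraries in RNA. Hnf4a, a nuclear receptor of liver and visceral endoderm, changed sign: it was 2.39 and 5.00 CPM in G9 and 0.984 and 1.55 CPM in C4 in day 10 RNA (1.54 ± 0.26), but 2.06 and 1.85 CPM in G9 and 4.52 and 3.49 CPM in C4 in day 7 nascent transcription (-1.03 ± 0.30).

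Visceral endoderm, the extraembryonic layer that secretes serum proteins, showed a similar but smaller balance at day 10 and none at day 7. Of 31 listed genes 19 were tested in RNA, 9 of them higher in G9 and 2 lower, with a median of 0.30 (5 and 1 by DESeq2). In PRO-seq 5 of 20 tested were higher and 4 lower, with a median of 0.02 (2 and 0 by DESeq2). Sox17 and Hnf4a are on this list and on that of definitive endoderm, so they are counted in each. Gata4 was 105 and 118 CPM in G9 and 47.4 and 47.3 CPM in C4 at day 10 (log2 fold change 1.24 ± 0.06) and 18.2 and 20.9 CPM in G9 and 11.6 and 12.2 CPM in C4 at day 7 (0.72 ± 0.15). Gata6 had the wider gap at day 7, with 19.096 and 35.2 CPM in G9 and 2.54 and 2.97 CPM in C4 (3.28 ± 0.19), and a narrower one at day 10, with 72.8 and 82.6 CPM in G9 and 54.9 and 51.0 CPM in C4 (0.56 ± 0.06). Ttr, the serum carrier transthyretin, was 2.54 and 2.83 CPM in G9 and 0.189 and 0.462 CPM in C4 (3.03 ± 0.37). Afp, the defining serum protein of visceral endoderm, was too low to be tested in either assay, so the low-level serum genes describe few transcripts.

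Cardiac genes were more often higher than lower in G9 in RNA, while in PRO-seq most did not pass. Of 22 listed genes 6 of 18 tested were higher and 3 lower in PRO-seq (median 0.37), and 11 of 20 tested were higher and 2 lower in RNA (median 0.34). DESeq2 called 2 higher and 2 lower in PRO-seq and 5 higher and 0 lower in RNA. Their summed level was 184.9 and 246.6 CPM in G9 and 216.9 and 250.6 CPM in C4 in PRO-seq, where the clones overlapped, and 329.0 and 360.5 CPM in G9 and 220.4 and 205.6 CPM in C4 in RNA, where they did not. Hand2, a bHLH factor of the right ventricle and limb, was 23.6 and 26.3 CPM in G9 and 7.27 and 6.96 CPM in C4 in RNA (log2 fold change 1.81 ± 0.11, adjusted p = 3.34e-57), while its nascent level at day 7 did not pass (0.39 ± 0.47). Hand1, its partner in the left ventricle and in extraembryonic mesoderm, was higher in both: 28.6 and 55.2 CPM in G9 and 15.1 and 27.5 CPM in C4 in RNA (0.97 ± 0.08), and 1.37 and 2.27 CPM in G9 and 0.689 and 0.458 CPM in C4 in PRO-seq (1.69 ± 0.48). The RNA values of Hand1 show the treatment as a large component, with the lower G9 library close to the higher C4 library. Myl7, an atrial myosin light chain, was 20.9 and 18.3 CPM in G9 and 11.9 and 10.1 CPM in C4 (0.84 ± 0.11), Tnnt2 did not pass in RNA (0.34 ± 0.25), and Smyd1, a muscle methyltransferase on chromosome 6, was lower in both assays (-1.84 ± 0.19 and -0.71 ± 0.20).

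Blood and vessel genes gave mixed signs. Gata1, the erythroid GATA factor, was 11.8 and 15.6 CPM in G9 and 7.34 and 7.97 CPM in C4 in RNA (log2 fold change 0.85 ± 0.13), and Etv2, which initiates the haemato-endothelial lineage, was 13.1 and 11.8 CPM in G9 and 7.08 and 6.25 CPM in C4 (0.90 ± 0.13). Cdh5, the endothelial cadherin, was 8.67 and 8.62 CPM in G9 and 4.17 and 2.94 CPM in C4 (1.31 ± 0.17). Pecam1, an adhesion molecule of endothelium that undifferentiated ES cells also express, went the other way, at 7.93 and 7.84 CPM in G9 and 16.3 and 16.8 CPM in C4 (-1.08 ± 0.12). Of 13 endothelial genes tested in RNA 5 were higher and 3 lower, and of 14 blood genes 3 were higher and 2 lower. Over all genes tested in RNA 21.2% were higher and 22% lower, and the blood counts were near these shares. Fibroblast genes, the list that feeder cells would also carry, were 6 higher and 1 lower of 20 in PRO-seq and 2 higher and 7 lower of 22 in RNA. Their summed level in RNA was 3192 and 3261 CPM in G9 and 3524 and 3676 CPM in C4, and Col1a1, the type I collagen chain, did not pass at 0.03 ± 0.06. The part of feeder cells in the other differences was not tested.

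Pluripotency genes were lower in G9 on both days. Of 26 listed naive and core pluripotency genes, 16 of 25 tested were lower and 1 higher in PRO-seq, with a median of -0.47, and 20 of 26 were lower and 2 higher in RNA, with a median of -0.77. DESeq2 called 13 and 17 lower. Esrrb, an orphan nuclear receptor of the naive state, was 35.2 and 48.8 CPM in G9 and 113 and 143 CPM in C4 in PRO-seq (log2 fold change -1.61 ± 0.09), and 34.1 and 61.0 CPM in G9 and 105 and 127 CPM in C4 in RNA (-1.30 ± 0.06). Zfp42, also called Rex1, was 27.1 and 36.2 CPM in G9 and 82.9 and 110 CPM in C4 in PRO-seq (-1.61 ± 0.09), and 29.5 and 50.1 CPM in G9 and 86.1 and 103 CPM in C4 in RNA (-1.24 ± 0.06). No G9 library reached a C4 library for either gene in either assay. Fgf4, a target of Oct4 and Sox2, was 5.50 and 7.52 CPM in G9 and 20.2 and 28.4 CPM in C4 at day 7 (-1.90 ± 0.16), and Nr0b1, an X-linked partner of Oct4, was 0.343 and 2.84 CPM in G9 and 6.64 and 10.2 CPM in C4 (-2.51 ± 0.31).

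Of the core factors, Pou5f1, which encodes Oct4, was 306 and 357 CPM in G9 and 341 and 417 CPM in C4 in RNA (log2 fold change -0.19 ± 0.07, adjusted p = 0.0246) and did not pass in PRO-seq (0.09 ± 0.12). Its RNA ranges overlapped between the clones. Sox2, shared by pluripotent and neural cells, was 67.5 and 125 CPM in G9 and 126 and 197 CPM in C4 in RNA (-0.77 ± 0.06), where the G9 DMSO library nearly met the C4 dTAG-13 library. Nanog differed between assays: in RNA it was 50.3 and 74.5 CPM in G9 and 111 and 147 CPM in C4 (-1.05 ± 0.06), and in PRO-seq it did not pass, at 43.3 and 86.2 CPM in G9 and 47.5 and 70.5 CPM in C4 (0.09 ± 0.10). Nanog, Gdf3 and Dppa3 lie on chromosome 6, whose genes as a whole were lower in G9, as described below. Without these 3 the lower calls were 14 in PRO-seq and 17 in RNA. Klf5 was the member higher in G9 in PRO-seq, at 96.0 and 119.2 CPM against 58.7 and 65.3 CPM in C4 (0.79 ± 0.08), and Tbx3 and Sall4 were the members higher in RNA, at 0.49 ± 0.06 and 0.24 ± 0.08.

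Germline genes, which are silent in most somatic cells and partly transcribed in ES cells, were also lower. Of 20 listed genes 8 of 19 tested were lower and 2 higher in PRO-seq (median -0.47), and 11 of 18 were lower and 2 higher in RNA (median -0.68). DESeq2 called 7 and 6 lower. Dppa3 and Prdm14 are on this list and on the pluripotency list, so the lists are not separate. Without the members on chromosome 6, Dppa3 among them, 7 were lower in PRO-seq and 10 in RNA. Smc1b, the meiotic counterpart of the cohesin subunit Smc1a, is not on this list but on that of the cohesin machinery. Smc1b was 6.87 and 9.65 CPM in G9 and 34.8 and 31.8 CPM in C4 in PRO-seq (log2 fold change -2.01 ± 0.15), and 2.24 and 3.88 CPM in G9 and 9.77 and 10.95 CPM in C4 in RNA (-1.70 ± 0.17). Hormad1, which monitors meiotic chromosome pairing, was 5.08 and 4.68 CPM in G9 and 16.1 and 17.8 CPM in C4 in PRO-seq (-1.80 ± 0.18), and 0.598 and 1.04 CPM in G9 and 2.80 and 3.57 CPM in C4 in RNA (-1.90 ± 0.29). Sycp3, a component of the synaptonemal complex, was 4.12 and 5.54 CPM in G9 and 11.98 and 10.7 CPM in C4 in PRO-seq (-1.23 ± 0.20), and 1.57 and 1.76 CPM in G9 and 2.39 and 4.20 CPM in C4 in RNA (-1.03 ± 0.25). In these 3 genes the clones did not overlap in either assay. Also outside the germline list, the genes with the widest gap shared by both assays included Usp26, a testis-expressed X-linked deubiquitinase (-2.41 ± 0.17 and -2.40 ± 0.22), and Nlrp4f, an oocyte gene (-2.32 ± 0.26 and -2.07 ± 0.19). Prdm1, the gene for Blimp1 that is used in germ cell specification and in endoderm, was higher in both assays (1.00 ± 0.13 and 0.32 ± 0.07).

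The promoters of Hormad1 and Sycp3 are shown because both genes were lower in both assays and both windows hold repeated matches to the E-box letters CACGTG. E-boxes of this form are bound by MAX-containing dimers, and such dimers take part in silencing germline genes in mouse ES cells. Capitals mark every match to 4 motifs searched on both strands of the 250 bases before the start: CTTTGAT (TCF/LEF), TCACACC (T-box), GGCGGGAA (E2F) and CACGTG, which reads alike on both strands. The windows are from RefSeq, GRCm38.p6, at chr3:95559427-95559676 and chr10:88459337-88459586, both on the plus strand.
Hormad1 promoter: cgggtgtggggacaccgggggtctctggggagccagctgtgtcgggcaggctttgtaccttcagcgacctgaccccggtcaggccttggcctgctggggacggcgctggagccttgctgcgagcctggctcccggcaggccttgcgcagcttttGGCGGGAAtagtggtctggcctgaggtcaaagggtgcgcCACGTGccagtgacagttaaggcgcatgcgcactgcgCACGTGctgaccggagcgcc
Sycp3 promoter: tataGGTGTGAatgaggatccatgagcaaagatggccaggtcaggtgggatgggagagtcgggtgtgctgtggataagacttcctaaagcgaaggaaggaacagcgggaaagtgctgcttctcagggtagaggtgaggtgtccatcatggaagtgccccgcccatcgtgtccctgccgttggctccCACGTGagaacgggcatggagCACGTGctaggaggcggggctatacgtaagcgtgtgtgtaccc
In Hormad1 the E-boxes begin 57 and 20 bases before the start, with the E2F letters 96 bases before it, and in Sycp3 the E-boxes begin 64 and 43 bases before the start. A promoter was listed for 16 germline genes, and 9 of these held an E-box, against 6.02% of all 32851 windows. Among the 6 of them lower in PRO-seq 4 held one, and among the 8 lower in RNA 5 did, so genes with and without the letters were among the lower ones. The 0 of 15 streak genes with an E-box are given for comparison. In both lists a gene counted if any of its windows held the letters, while the 6.02% is a share of windows. No binding was measured here.

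DNA methylation enzymes were the other group that was lower almost throughout at day 7. Of 9 tested 8 were lower in G9 in PRO-seq and 0 higher (median -0.42), and of 11 tested in RNA 5 were lower and 0 higher (median -0.15). Dnmt3l, the cofactor of the de novo methyltransferases, was 13.3 and 15.6 CPM in G9 and 45.5 and 32.5 CPM in C4 in PRO-seq (log2 fold change -1.41 ± 0.14), and 40.1 and 61.0 CPM in G9 and 98.2 and 98.9 CPM in C4 in RNA (-0.96 ± 0.06). Tet1 and Tet2, which oxidise methylcytosine, were lower in both assays, Tet2 by -0.97 ± 0.10 in PRO-seq and -1.43 ± 0.10 in RNA and Tet1 by -0.41 ± 0.06 and -1.08 ± 0.06. Dnmt3a was 160 and 174 CPM in G9 and 315 and 330 CPM in C4 in PRO-seq (-0.95 ± 0.07), with a smaller difference in RNA (-0.34 ± 0.06).

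Neural progenitor genes were more often lower than higher in G9 in RNA, while in PRO-seq most did not pass. Of 22 tested in RNA 12 were lower and 3 higher (median -0.46), and of 20 tested in PRO-seq 6 were lower and 2 higher (median -0.27). DESeq2 called 7 lower and 1 higher in RNA and 3 lower and 1 higher in PRO-seq. Their summed level was 376.6 and 556.0 CPM in G9 and 385.9 and 514.6 CPM in C4 in PRO-seq, so the DMSO pair went the other way. In RNA it was 610.6 and 793.1 CPM in G9 and 708.5 and 894.3 CPM in C4, lower in G9 within each treatment. Sox1, the SOX factor of the early neural plate, was 0.598 and 4.25 CPM in G9 and 3.75 and 10.7 CPM in C4 in RNA (log2 fold change -1.53 ± 0.19). The dTAG-13 library was the lower one in each clone, and the clones overlapped across treatments. Zic5, a zinc finger factor of the dorsal neural tube, was 7.63 and 14.8 CPM in G9 and 17.3 and 28.8 CPM in C4 (-1.03 ± 0.10). Otx2, a factor of epiblast and forebrain, was among the 3 higher genes, at 170 and 184 CPM in G9 and 141 and 152 CPM in C4 (0.27 ± 0.06), and Pax6 did not pass in RNA (0.09 ± 0.15). Foxb1, a forkhead gene of the caudal neural tube and diencephalon, had the widest gap outside the list, at 3.81 and 5.96 CPM in G9 and 14.3 and 18.3 CPM in C4 (-1.71 ± 0.13).

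Hox genes, which give cells their position along the body axis, were lower in G9 at day 10. Of 39 listed 25 were tested in RNA, 15 were lower and 0 higher, with a median of -0.83 (0 higher also at an unadjusted p). DESeq2 called 4 lower and 0 higher. Hoxd9 was 4.49 and 4.92 CPM in G9 and 9.81 and 7.97 CPM in C4 (log2 fold change -0.87 ± 0.16), Hoxb1 was 4.79 and 2.63 CPM in G9 and 8.06 and 6.96 CPM in C4 (-1.10 ± 0.18), and Hoxd3 was 0.374 and 0.521 CPM in G9 and 2.39 and 1.85 CPM in C4 (-2.09 ± 0.36). For these genes every C4 library was above every G9 library. The Hoxa cluster lies on chromosome 6, and without its 7 members 9 were lower and 0 higher, with a median of -0.54. At day 7 17 Hox genes were tested and 1 passed, Hoxb1, which was higher in G9 at 1.37 and 0.710 CPM against 0.259 and 0.400 CPM in C4 (1.56 ± 0.59, adjusted p = 0.041), and which DESeq2 did not call. Neighbouring Hox genes share regulation and overlapping transcripts, so their counts are not independent.

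**Figure D2:**
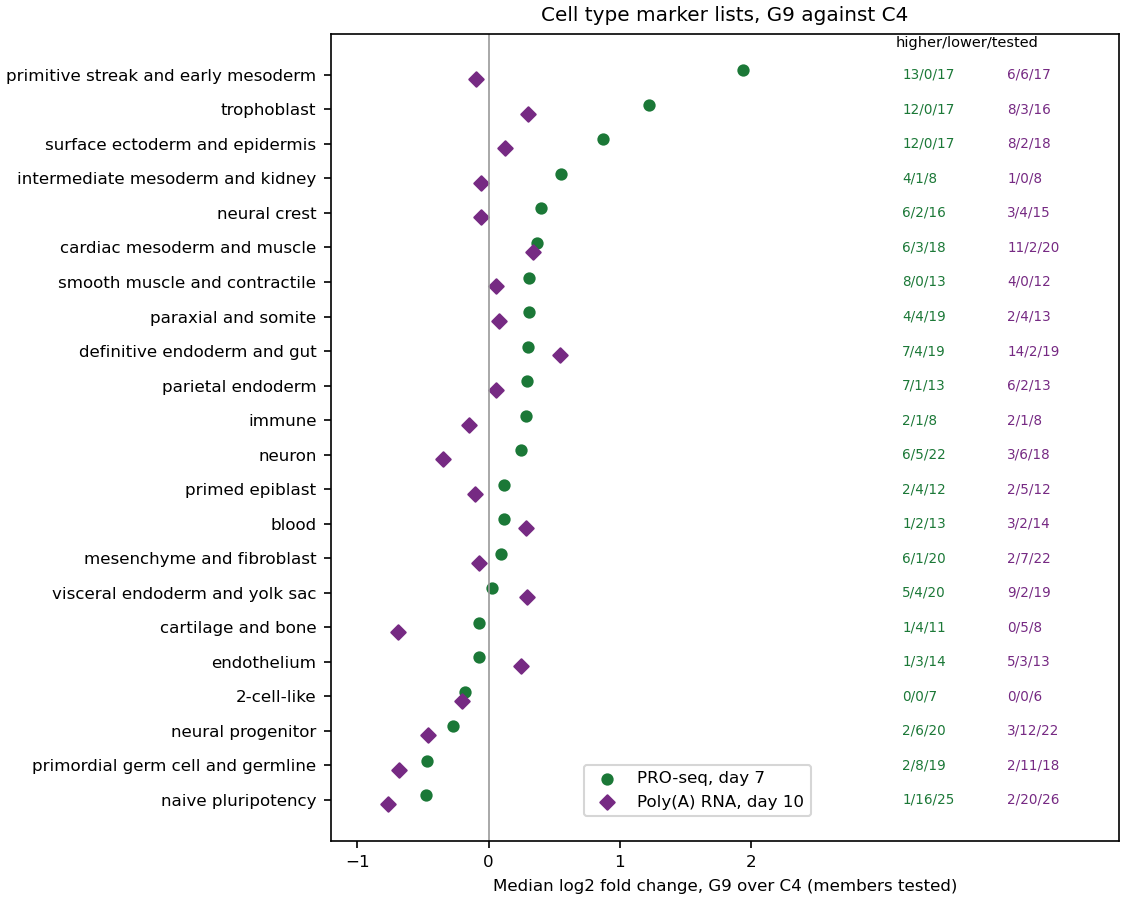
Median log2 fold change (G9 over C4) of the tested members of 22 cell type marker lists, with green circles for PRO-seq at day 7 and purple diamonds for poly(A) RNA at day 10; the figures at the right give genes higher, lower and tested in the same colours. The streak list is farthest to the right in PRO-seq at 1.94 and close to 0 in RNA, and the naive pluripotency and germline lists lie to the left in both.

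Epithelial genes were also mostly higher in G9 at day 7. Of 17 tested surface ectoderm genes 12 were higher in G9 and 0 lower (median 0.88), and of 17 trophoblast genes 12 were higher and 0 lower (median 1.22, 7 and 0 by DESeq2), with Krt8, Krt18, Krt19 and Tfap2c on both lists. The trophoblast list also shares Eomes and Cdx2 with the streak list, so these are counted in each. Krt8, a keratin of simple epithelia, was 75.4 and 83.2 CPM in G9 and 23.1 and 24.5 CPM in C4 (log2 fold change 1.74 ± 0.10), and Dsp, which anchors desmosomes, was 179 and 138 CPM in G9 and 37.7 and 39.1 CPM in C4 (2.03 ± 0.09). In RNA Krt8 was 957 and 741 CPM in G9 and 610 and 580 CPM in C4 (0.50 ± 0.09), and 8 of 18 surface ectoderm genes were higher and 2 lower. Elf5, a defining factor of trophoblast stem cells, was close to the floor in PRO-seq, at 1.03 and 0.852 CPM in G9 and 0.0431 and 0.486 CPM in C4.

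Immediate early genes, which respond within minutes to serum and handling, were also higher at day 7. Of 23 tested 20 were higher in G9 and 0 lower (median 0.73), and in RNA 10 were higher and 1 lower (median 0.08, 5 and 0 by DESeq2). Atf3 was 269 and 215 CPM in G9 and 60.6 and 61.8 CPM in C4 in PRO-seq (log2 fold change 1.98 ± 0.08), and Klf6 was 358 and 322 CPM in G9 and 158 and 163 CPM in C4 (1.08 ± 0.07). Their part in the lineage differences was not tested. Clustered protocadherins, adhesion molecules whose genes share a constant region, were higher at 33 of 42 tested in PRO-seq and at 0 of 39 in RNA, where 0 were lower and 0 had an unadjusted p under 0.05. The 33 are not independent, since variable exons of a cluster share nascent reads. Nor are the 39 RNA entries, since genes of a cluster can share reads from the constant region. Among single genes, the cell adhesion gene Pcdh7 was 162 and 192 CPM in G9 and 25.6 and 34.1 CPM in C4 in PRO-seq (2.57 ± 0.08), against 109 and 88.2 CPM in G9 and 124 and 94.5 CPM in C4 in RNA (-0.14 ± 0.06, and 0.05 without the dTAG-13 library of C4), and the semaphorin receptor Plxna2 was 98.7 and 126 CPM in G9 and 19.5 and 17.2 CPM in C4 (2.62 ± 0.11), against -0.22 ± 0.06 in RNA.

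Across all 13324 genes tested in both assays, 688 were called higher in both (5.16%) and 1036 lower in both (7.78%), while 528 were higher at day 7 and lower at day 10 (3.96%) and 215 the reverse (1.61%). The genes of equal sign were 35.3% of the PRO-seq calls and 29.8% of the RNA calls among these genes, and 123 of them differed at least 2-fold in both. The fold changes correlated across genes with Pearson's r = 0.322 and Spearman's rho = 0.259, as a description only. In RNA the largest higher values under the naming rule were those of Prss12, a secreted serine protease (48.8 and 46.7 CPM in G9, 11.8 and 9.69 CPM in C4, log2 fold change 2.16 ± 0.09), and Spink1, a trypsin inhibitor (50.7 and 42.5 CPM in G9, 12.9 and 12.4 CPM in C4, 1.88 ± 0.08). Ctsh, a lysosomal protease, was 41.4 and 44.9 CPM in G9 and 15.4 and 15.8 CPM in C4 (1.47 ± 0.08), and Cfc1, a Nodal co-receptor of the Cripto family, was 49.7 and 49.8 CPM in G9 and 20.8 and 17.7 CPM in C4 (1.38 ± 0.08). The ribosomal protein genes Rpl11 and Rpl27 were 1.72 ± 0.07 and -2.26 ± 0.14 in RNA and did not follow in PRO-seq (-0.25 ± 0.08 and 0.04 ± 0.08). Genes of this family have many near-identical copies in the genome, so these RNA values are uncertain.

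**Figure D3:**
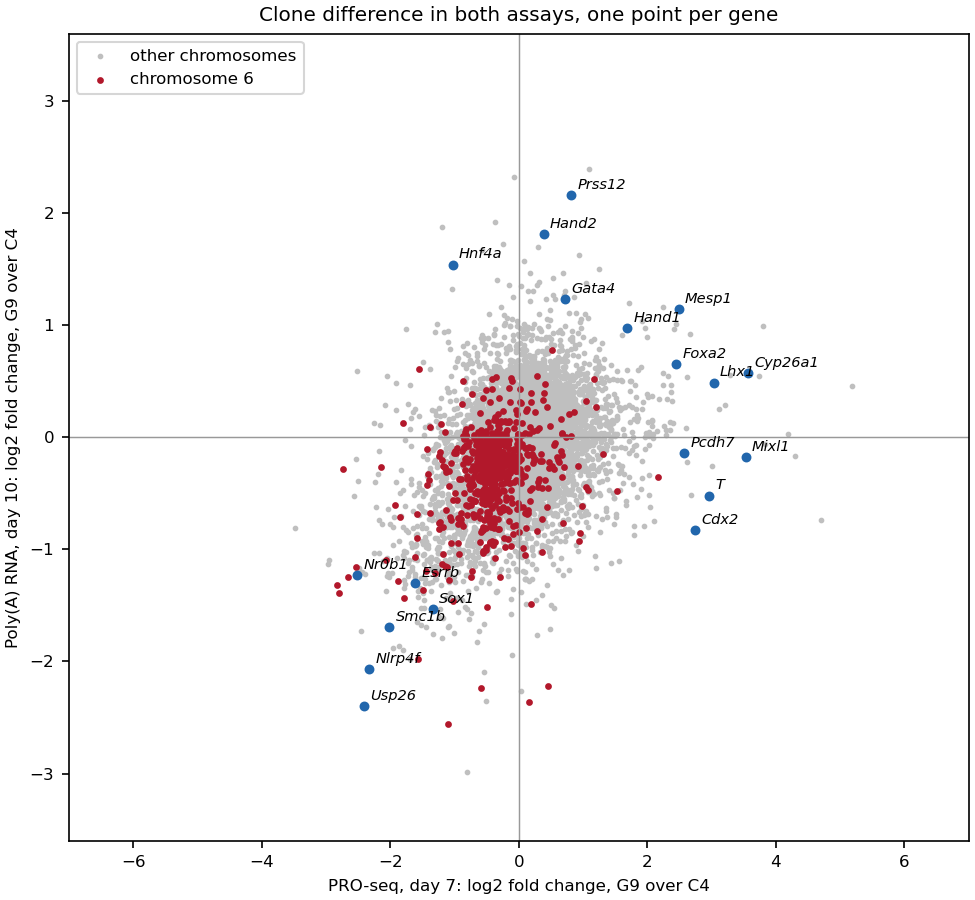
Log2 fold change (G9 over C4) of each of 13324 genes in PRO-seq at day 7 (horizontal) and poly(A) RNA at day 10 (vertical), with genes on chromosome 6 in red, genes on other chromosomes in grey and named genes in blue. The streak genes T, Mixl1 and Cdx2 lie at the right near or below 0 on the vertical axis, Usp26, Nlrp4f and Smc1b lie at the lower left, and the red points are shifted to the lower left.

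Genes of chromosome 6 were lower in G9 as a whole. They had a median log2 fold change of -0.371 over 829 genes in PRO-seq and -0.262 over 709 genes in RNA. On the 19 other chromosomes the medians ran from -0.084 (X) to 0.122 (18) in PRO-seq and from -0.111 (X) to 0.067 (17) in RNA. On chromosome 6 462 genes were called lower (55.7%) and 44 higher in PRO-seq, and 391 were lower (55.1%) and 27 higher in RNA. The share of lower calls on any other chromosome was at most 22.4% and 35.7%. The shift was alike in both pairs of libraries, at -0.366 between the dTAG-13 libraries and -0.38 between the DMSO libraries in PRO-seq and at -0.262 and -0.266 in RNA. Its quartiles were -0.61 and -0.107 in PRO-seq and -0.516 and -0.091 in RNA, and 80.6% and 83.6% of its genes lay below 0.

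The shift ran along the whole chromosome. Divided into consecutive runs of 50 tested genes, chromosome 6 gave 16 runs in PRO-seq, all with a median below 0 (-0.446 to -0.214), and 14 in RNA, all below 0 (-0.399 to -0.184). Of the runs on other chromosomes, 3 of 303 in PRO-seq and 5 of 263 in RNA were as low as the highest run of chromosome 6. Among the 1036 genes lower in both assays, 267 were on chromosome 6, against 3 of the 688 genes higher in both. Set against 2 day 10 DMSO libraries of WAPL-degron clone H7, another line of the series held in another table, the chromosome 6 median was -0.14 for the DMSO library of G9 and 0.10 for that of C4. The other chromosomes ran from -0.192 to 0.081 for G9 and from -0.109 to 0.033 for C4, and from -0.13 to 0.108 between the 2 libraries of H7. Both values rest on 1 library per clone, and the value of C4 lay within the range between the libraries of H7. The number of copies of chromosome 6 and the parental alleles were not analysed here, and the cause of the shift was not tested.

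**Figure D4:**
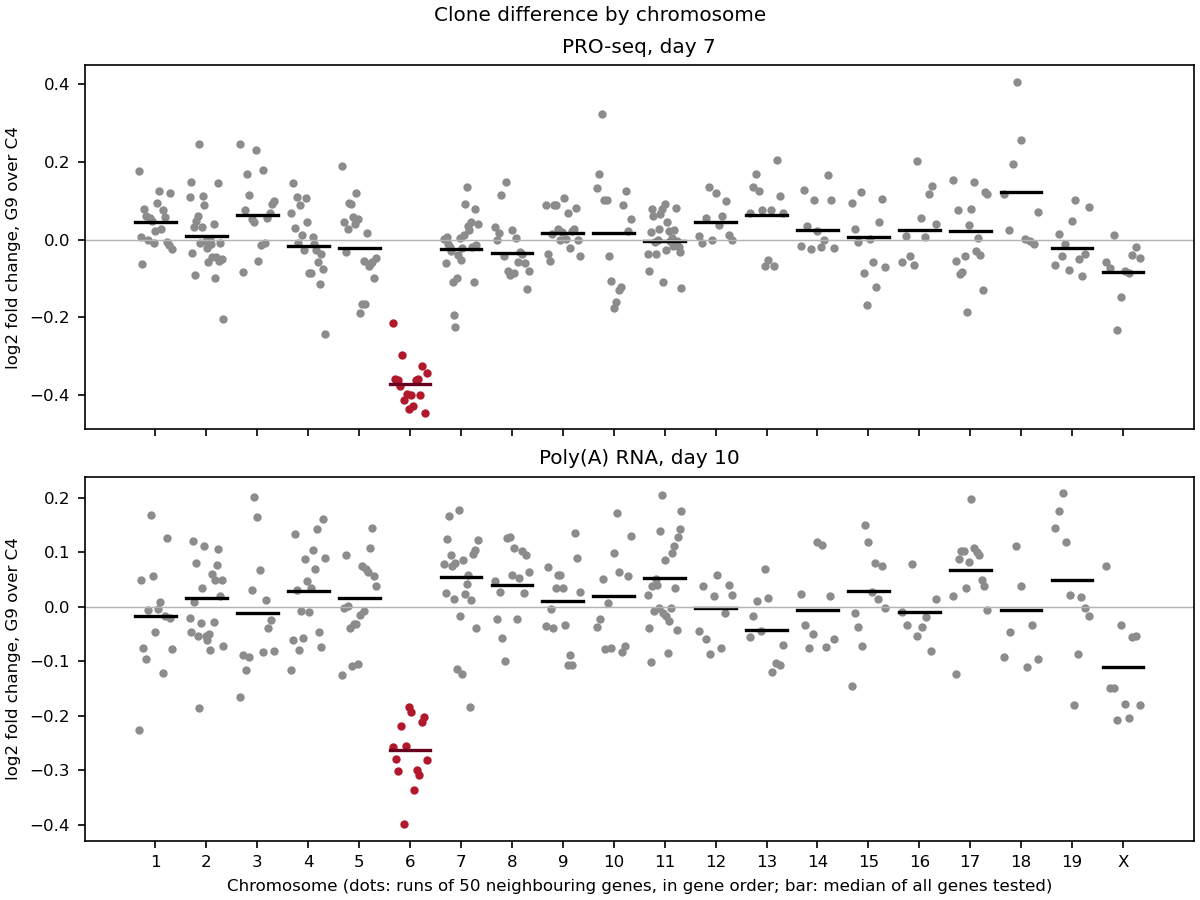
Median log2 fold change (G9 over C4) by chromosome in PRO-seq at day 7 (above) and poly(A) RNA at day 10 (below); each dot is a run of 50 neighbouring genes in gene order and each bar the median of all genes tested on the chromosome. All runs of chromosome 6 (red) lie below 0, at -0.446 to -0.214 above and -0.399 to -0.184 below.

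Chromosome 6 genes that stood against it in PRO-seq included Evx1, described above and lower in G9 in RNA, and Peg10, an imprinted retrotransposon-derived gene needed in placenta, at 535 and 314 CPM in G9 and 172 and 159 CPM in C4 in PRO-seq (log2 fold change 1.31 ± 0.09). Without chromosome 6, 2903 genes were higher and 2327 lower in PRO-seq, and 3044 and 2786 in RNA.

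The X chromosome was followed because the lines carry a Tsix-stop allele, Tsix being the antisense repressor of Xist, the RNA that silences an X chromosome. Xist was 357 and 335 CPM in G9 and 462 and 596 CPM in C4 in day 10 RNA (log2 fold change -0.60 ± 0.08, adjusted p = 2.75e-13). In day 7 PRO-seq it was 174 and 128 CPM in G9 and 139 and 119.1 CPM in C4 (0.21 ± 0.07, adjusted p = 0.0239), where the clones overlapped and the value was -0.01 without the dTAG-13 library of G9. Xist and Tsix overlap on opposite strands, and whether the counting used strand is not given in the sources used here, so their reads cannot be told apart. Of 526 X-linked genes tested in RNA 188 were lower in G9 (35.7%) and 77 higher, and 10 of 17 genes that escape X inactivation were lower and 1 higher (median -0.21, 6 and 0 by DESeq2). In PRO-seq 3 of these 17 were higher and 3 lower, with a median of 0.08.

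Imprinted genes, which are expressed from 1 parental allele, did not share a direction, with 13 higher and 11 lower of 47 in PRO-seq and 13 higher and 18 lower of 53 in RNA. Over all genes tested, 17.9% were higher and 16.9% lower in PRO-seq, and 21.2% and 22% in RNA. Without the members on chromosome 6, 10 were higher and 7 lower in PRO-seq, and 12 were higher and 12 lower in RNA. Igf2, a fetal growth factor, was 176 and 237 CPM in G9 and 80.1 and 101 CPM in C4 in RNA (log2 fold change 1.19 ± 0.06), and its neighbour H19 was 374 and 479 CPM in G9 and 215 and 310 CPM in C4 (0.71 ± 0.07). Both G9 libraries were above both C4 libraries for either gene. Meg3, a maternal noncoding RNA, was 573 and 428 CPM in G9 and 344 and 361 CPM in C4 (0.49 ± 0.08). The growth arrest gene Plagl1 was lower, at 11.8 and 19.002 CPM in G9 and 23.8 and 41.1 CPM in C4 (-1.08 ± 0.09).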

How the data were processed

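The PRO-seq values are the estimated counts per gene that the authors deposited, in multiples of 0.5, and were rounded to whole numbers. The RNA values are the read counts per gene that the authors deposited. Which aligner and counter made each table is not given in the sources used here; the submitters' processing notes name the builds mm9, hg19 and dm6 and, among other tools, TopHat2, Novoalign, Bowtie2 and HOMER, with no roles. Each table was fitted on its own with edgeR 4.0.16 (R 4.3.3): filterByExpr with a minimum count of 10, TMM factors, a quasi-likelihood F-test of clone with treatment as a term, Benjamini-Hochberg adjustment over all genes tested and calls at an adjusted p under 0.05. This leaves 1 residual degree of freedom (prior degrees of freedom 29.48 for PRO-seq, infinite for RNA), and a clone-by-treatment term leaves none, so that difference was not tested. Errors are SEs from that fit. In simulated data with the same design, 93.9% of 4-fold and 80.8% of 2-fold changes were recovered in PRO-seq and 100% and 91.5% in RNA, with 5.5% and 6.8% false among the calls. The simulated data held no treatment effect, took their dispersions from this same fit and changed far fewer genes than were called here. They therefore cannot give the share of false calls in the real data. DESeq2 1.42.0, limma-voom (limma 3.58.1), other scalings and filters, fits without the treatment term and fits without each library were alternatives.

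Chromosomes are those written in the files; for 99.99% and 99.98% of genes with both they matched RefSeq GRCm38.p6, which also gave the gene order and the promoters. Genes were named by rule: the 12 largest differences in each direction at an average level of 2 or more in log2 CPM, those shared by both assays, up to 5 members of each of 47 lists and a set of lineage genes, and further list members chosen after their values were seen. A few genes that this rule picks were left out of the text. The members and lists were chosen with earlier results of these data known. Clone H7 enters only the chromosome medians, as another table normalised on its own, and 1 further table was not used.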

Additional observations from a re-analysis of the deposited data

Results flagged for a closer look

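Of the genes called in both assays, 743 had opposite signs at day 7 in PRO-seq and at day 10 in RNA, which are 15.2% of the PRO-seq calls and 12.9% of the RNA calls among genes tested in both. Of these 13324 genes, 2508 were higher and 2369 lower in PRO-seq, and 2838 higher and 2939 lower in RNA. With so many calls, overlaps of opposite sign arise from the shares alone, so the 743 are not read as a set of reversals. The difference between the assays was not tested, and day and assay cannot be told apart. Only 6 of the 743 differed at least 2-fold in both. Cdx2 was 2.74 on the log2 scale (G9 over C4) in PRO-seq and -0.83 in RNA. Hoxb1 was 1.56 and -1.10. Hnf4a was -1.03 and 1.54, the reverse order. The axon guidance gene Sema3d was 1.44 and -1.12, and the X-linked protocadherin Pcdh11x was 1.20 and -1.16. The noncoding Platr5 was -1.03 and 1.32. Under 2-fold in RNA, and so outside the 6, were Cdx2, at 2.74 and -0.83, T, at 2.95 and -0.52, and Xist, at 0.21 and -0.60. For T all 4 G9 and C4 pairs of equal treatment had the sign of their assay.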

How the results depend on the processing

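Every clone has 1 library per treatment and assay, so fits without a library drop the treatment term and assume that the lone library varies like the other clone. They gave 212 to 2357 PRO-seq calls (115 to 1283 higher in G9, 95 to 1074 lower, 187 to 882 at least 2-fold), 0 to 265 RNA calls (0 to 78, 0 to 187, 0 to 105), and 0 to 101 genes of equal and 0 to 7 of opposite sign in both. The PRO-seq calls were 1529 and 2357 without the dTAG-13 and the DMSO library of G9, and 212 and 243 without those of C4. No paired analysis was possible because the clones carry no replicate numbers; the treatment term matches the libraries instead. Without that term 1366 PRO-seq genes (670 higher, 696 lower, 591 at least 2-fold) and 357 RNA genes (78, 279, 72) were called, with 87 and 7 in both. DESeq2 called 2835 in PRO-seq (1566, 1269, 775) and 1690 in RNA (612, 1078, 164), with 446 and 128 in both, and 36.2% of its RNA calls were higher, against 49.2%. The genes at least 2-fold were 829 and 186 among those with a mean count of at least 50. A 2-fold minimum in both assays left 123 of equal and 6 of opposite sign. The cause of these changes was not tested.

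The chromosome 6 median was -0.427 and -0.271 by library totals, and -0.382 and -0.257 at a mean count of at least 50. Single genes changed sign when 1 library was left out, over ranges in PRO-seq of -0.50 to 0.0001 for Sall4, -1.08 to 0.0268 for Sox2, -0.0098 to 0.44 for Xist and -1.21 to 0.0616 for Zic5. In RNA the ranges were -1.51 to 0.50 for Fst, -0.41 to 0.0452 for Mixl1, -0.33 to 0.0515 for Pcdh7 and -0.0504 to 0.34 for Sp5. Of the values of named genes under the settings that keep all libraries, 723 of 773 in PRO-seq and 753 of 836 in RNA stayed on their side of the threshold. Changes of sign were counted only for genes called with the main settings, and 0 of these changed sign. Genes that were not called could change sign without being counted. With 1 library left out there were 352 values in PRO-seq and 376 in RNA. Of these, 5 and 5 belonged to genes called with the main settings and changed sign.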
